A study of Homo sapiens with 27 samples.

Results

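Of the 3177 shRNAs counted in a pooled kinome screen, 2 were found mainly on a single plate of a cell line. They were TRCN0000003205 and TRCN0000039637, and both were concentrated in UMSCC1, each on a different plate treated with AZD8931. An shRNA was taken as a member when it had at least 200 counts summed over the 9 plates of a line and at least 60% of its summed CPM (the count divided by the library total and scaled to 1000000) on one of them, in at least 1 line. The members were thus chosen by these same counts. In all, 2763 shRNAs had the 200 counts in at least 1 line, which gave 7511 pairs of shRNA and line that could meet the 60% limit. No pair in UMSCC25 or UMSCC8 did so. Growth itself was not measured, so the members are described by where their counts lay, and nothing here shows that cells carrying them outgrew others.

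UMSCC1, UMSCC25 and UMSCC8 are cell lines from head and neck squamous cell carcinoma. Each line carried the MISSION TRC1 kinome shRNA library, introduced by lentivirus into cells on a pair of plates and followed by puromycin selection, and gave 9 sequenced libraries: 3 plates with AZD8931, an inhibitor of the EGFR, ERBB2 and ERBB3 receptors, 3 with gefitinib, which inhibits the kinase activity of EGFR, and 3 with DMSO as vehicle. The cells of all groups were treated for 72 hours, left to recover for 72 hours and lysed for genomic DNA at 144 hours. The study's methods and one field of the labels give 30 nM AZD8931 and 300 nM gefitinib, while another field gives 1000 nM for both. As the doses of the methods differ, the inhibitors are set beside each other here without a test between them. The methods describe the 9 plates as divisions of the transduced cells of a line and not as separate transductions, and they leave it unstated whether the transduced pair was combined first. The p-values thus measure the spread between divided plates, which may be technical. Because only integrated cassettes were counted, no marker gene could be used to check the identity of a line.

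In a pooled shRNA screen each cell normally carries one integrated cassette, which is copied with the genome at every division and serves as the barcode of that cell's descendants. The share of an shRNA among the amplified cassettes then stands for the share of surviving cells that descend from the cells it entered. The kinome library is directed at protein kinases and related genes. The number of cells behind each count was not measured. The files list the shRNAs by clone identifier without a gene name or a sequence, so the genes that the 2 members target are not given and no hairpin is printed.

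TRCN0000003205 had the highest share on a single plate of the 2387 shRNAs with 200 counts in UMSCC1. It had 21.9, 933 and 30.2 CPM on AZD8931 plates 1, 2 and 3, and 87.1, 13.2 and 39.3 CPM on the gefitinib plates, against 169, 19.3 and 71.3 CPM on the DMSO plates. Plate 2 of AZD8931 thus held 67.4% of its CPM summed over the line. The other 8 plates ran from 13.2 to 169 CPM with a median of 34.8 CPM, and both other AZD8931 plates lay below that median.

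The value on AZD8931 plate 2 rests on 249 of 266911 counts, and an exact (Clopper-Pearson) 95% binomial interval for it runs from 821 to 1056 CPM. The next highest plate, DMSO plate 1, had 78 counts, and the ratio of the 2 CPM values was 5.51 (95% exact counting interval, 4.26 to 7.20). This ratio ranked 4 among the 2387 shRNAs. Against the median of the other 8 plates the ratio was 26.8, which ranked 2. Such intervals cover counting error only, since reads from a PCR without molecular identifiers do not each stand for a separate molecule. These values chose the shRNA and are given as a description.

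Away from that plate TRCN0000003205 was itself variable. Its counts were 9 and 16 on the other AZD8931 plates, 46, 5 and 22 on the gefitinib plates, and 78, 5 and 35 on the DMSO plates. The coefficient of variation of its CPM over these 8 plates was 0.931, higher than for 97.9% of the shRNAs with 200 counts in UMSCC1, and the median over those shRNAs was 0.402 for the 8 plates left after the highest of each. Counts of 5 were seen on 1 gefitinib plate and on 1 DMSO plate, so the low values were not limited to plates with an inhibitor.

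TRCN0000039637 had its highest level on plate 1 of AZD8931 in UMSCC1 and had at most 112 CPM on the other plates. It had 943, 78.7 and 90.6 CPM on the AZD8931 plates and 64.4, 89.6 and 30.4 CPM on the gefitinib plates, against 104, 112 and 52.9 CPM on the DMSO plates. AZD8931 plate 1 held 60.2% of the sum over the line, just inside the 60% limit. The other AZD8931 plates lay within the range of the DMSO plates.

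On AZD8931 plate 1 this shRNA had 388 of 411547 counts, with an exact 95% interval from 851 to 1041 CPM. The next highest plate, DMSO plate 2, had 29 counts, and the ratio of the CPM values was 8.41 (95% exact counting interval, 5.76 to 12.7). No other shRNA with 200 counts in UMSCC1 had a higher ratio of its highest to its next plate, the median over all 2387 being 1.20. It varied less on the other plates than TRCN0000003205 did. The other 8 plates ran from 30.4 to 112 CPM, with a coefficient of variation of 0.351 that was higher than for 37.2% of these shRNAs.

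Neither member was a leading shRNA on its plate. TRCN0000003205 held 0.0933% of the counts of AZD8931 plate 2 and ranked 168 among the 2917 shRNAs detected there. TRCN0000039637 held 0.0943% of the counts of AZD8931 plate 1 and ranked 222 among 2823. Both came from the lower part of the library in this line: the median over the 9 plates was higher than for 24.0% of all shRNAs for TRCN0000003205 and for 40.3% for TRCN0000039637.

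By agent, the 9 AZD8931 plates held 2 members and the 9 gefitinib plates held 0, against 0 on the 9 DMSO plates. The mean number per plate was 0.222 with AZD8931 and 0 with gefitinib, against 0 with DMSO, and the members made up on average 0.0208% of the counts of an AZD8931 plate. With 1 member on each of 2 plates of a single line, the smallest two-sided p that an exact permutation of the agents within lines could give is 0.4. A test could therefore not reach the threshold, and these numbers are a description of where the 2 members lay.

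In the lines where they did not meet the rule, the members were spread over the plates. TRCN0000039637 had at most 24.3% of its CPM sum on a plate of UMSCC25 (gefitinib plate 2) and at most 16.6% in UMSCC8 (also gefitinib plate 2). For TRCN0000003205 the highest share was 20.7% in UMSCC25, on DMSO plate 1, and 16.8% in UMSCC8, on AZD8931 plate 1. The median of the highest share over all shRNAs with 200 counts was 17.3% in UMSCC25 and 17.7% in UMSCC8, and the 90th percentiles were 23.2% and 23.9%.

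The inhibitor plates of UMSCC25 had lower CPM of TRCN0000003205 than the DMSO plates, without passing the test. It had 126, 69.6 and 2.80 CPM with AZD8931 and 110, 85.5 and 74.2 CPM with gefitinib, against 204, 150 and 166 CPM with DMSO. All 3 AZD8931 plates lay under the lowest DMSO plate, a pattern that 11.5% of the 3090 shRNAs tested in this line had. The 3 gefitinib plates did so too, as for 9.61% of them, and the comparisons share the DMSO plates. The value of 2.80 CPM on AZD8931 plate 3 is a single count, below the 8.39 CPM that a count of 3 is worth there. By the edgeR quasi-likelihood test, with Benjamini-Hochberg adjustment over all shRNAs tested, the log2 fold change was −1.29 (SE 0.65, adjusted p = 0.552) for AZD8931 against DMSO and −0.85 (SE 0.64, adjusted p = 0.814) for gefitinib against DMSO. Neither passed the threshold of 0.05. For AZD8931 the log2 fold change was −2.15 without AZD8931 plate 1 (edgeR unadjusted p = 0.00831, adjusted p = 0.362) and −0.74 without AZD8931 plate 3, the plate with the single count. In the fit without AZD8931 plate 1, 318 of the 3086 shRNAs tested had an unadjusted edgeR p under 0.05 for AZD8931.

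In UMSCC8 the groups of TRCN0000003205 overlapped. It had 235, 109 and 142 CPM with AZD8931 and 78.9, 170 and 224 CPM with gefitinib, against 126, 146 and 166 CPM with DMSO. The edgeR log2 fold change was 0.19 (SE 0.46, adjusted p = 0.955) for AZD8931 and 0.17 (SE 0.46, adjusted p = 0.906) for gefitinib.

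TRCN0000039637 showed no separation of the groups in either of these lines. In UMSCC25 it had 88.8, 30.4 and 33.6 CPM with AZD8931 and 56.4, 153 and 74.2 CPM with gefitinib, against 52.1, 68.4 and 75.3 CPM with DMSO. Gefitinib plate 2 was the highest of the line, while gefitinib plates 1 and 3 lay among the DMSO plates. In UMSCC8 it had 63.1, 113 and 73.1 CPM with AZD8931 and 66.5, 143 and 89.7 CPM with gefitinib, against 112, 117 and 86.8 CPM with DMSO. The edgeR log2 fold changes lay between −0.29 and 0.63 over the 4 comparisons, with adjusted p-values from 0.855 to 0.999.

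Of the 8 tests of the 2 members in the lines that did not choose them, 0 passed an adjusted p of 0.05. This count has no contrast with the rest of the library, since edgeR called 0% of the 3090 shRNAs in UMSCC25, of the 3118 in UMSCC8 and of the 3083 in UMSCC1, in either direction and for either inhibitor. Before adjustment, a p under 0.05 was reached with AZD8931 by 125 lower (4.05%) and 163 higher shRNAs (5.28%) in UMSCC25, by 120 (3.85%) and 102 (3.27%) in UMSCC8, and by 144 (4.67%) and 149 (4.83%) in UMSCC1. With gefitinib it was reached by 84 lower (2.72%) and 148 higher shRNAs (4.79%) in UMSCC25, by 217 (6.96%) and 187 (6%) in UMSCC8, and by 64 (2.08%) and 50 (1.62%) in UMSCC1. In these fits of all plates, which had no term for the plate number, no member reached that unadjusted limit in UMSCC25 or UMSCC8. DESeq2 called 8 of the 3090 shRNAs for AZD8931 and 14 for gefitinib in UMSCC25. It called 0 and 76 of the 3118 in UMSCC8, and 24 and 0 of the 3083 in UMSCC1. For gefitinib in UMSCC25 it gave neither member an adjusted p, so neither could be called there. In its other comparisons in UMSCC25 and UMSCC8, 0 of its calls were members.

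For AZD8931 against DMSO in UMSCC1, the edgeR log2 fold change over all plates was 1.95 (SE 1.04) for TRCN0000003205 and 2.32 (SE 0.85) for TRCN0000039637. The rule used these plates and so fixed that the single plate carries the excess, and the values are given without a test. Without AZD8931 plate 2, the log2 fold change of TRCN0000003205 was −1.51 (SE 1.05). Without AZD8931 plate 1, that of TRCN0000039637 was −0.11 (SE 0.77), a difference smaller than its error. The remaining AZD8931 plates overlapped the DMSO plates for both shRNAs. For gefitinib against DMSO, with all plates, the log2 fold change was −0.89 (SE 1.03) for TRCN0000003205 and −0.62 (SE 0.84) for TRCN0000039637.

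The plates that held the members differed in how many shRNAs they listed at 0. AZD8931 plate 1 had 354 shRNAs at a count of 0, AZD8931 plate 2 had 260, and AZD8931 plate 3 had 189, against 163 to 229 on the gefitinib and DMSO plates of UMSCC1. Plate 1 was the highest plate for 471 of the 2387 shRNAs (19.7%), and its median shRNA had 82.6 CPM, against 108 to 149 CPM on the other 8 plates. Plate 2 was the highest for 253 (10.6%) and had the second lowest library total of the line, at which a count of 3 is worth 11.2 CPM. Library totals ranged from 178406 to 559422 counts over the series. The part of the shRNAs at 0 and of depth in the members' values was not tested.

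The shRNAs nearest outside the 60% limit were taken among those with the counts that the rule requires. In UMSCC1 they were TRCN0000037811 with 51.9%, which had 941 counts (2286 CPM) on AZD8931 plate 1, and TRCN0000001079 with 51.7%. The latter had 445 counts (795 CPM) on gefitinib plate 3. No shRNA with the required counts in UMSCC1 lay between 51.9% and 60.2%. With too few counts for the rule (136 in the line), TRCN0000039774 had 55.1% on DMSO plate 1 of UMSCC1. Also with too few counts, but at least 100, TRCN0000021563 had 64.4% and TRCN0000040045 had 63.4%. Both shares were on DMSO plate 1 of UMSCC8 and past the 60% limit, so the count minimum kept these shRNAs out. They were chosen after their values were seen. In UMSCC25 the nearest were TRCN0000021467 with 50.3% on AZD8931 plate 3 and TRCN0000039773 with 42.8% on gefitinib plate 3. In UMSCC8 they were TRCN0000037673 with 51.5% and TRCN0000037491 with 47.1%, both on DMSO plate 1. The plates nearest the limit thus came from AZD8931, gefitinib and DMSO.

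With a lower limit more agents held such shRNAs. At 50% there were 7, of which 4 lay on AZD8931 plates, 2 on gefitinib plates and 1 on a DMSO plate. At 40%, a limit added after the values were seen, there were 36 pairs of shRNA and line, with 17 on AZD8931 plates, 7 on gefitinib plates and 12 on DMSO plates. In UMSCC1, 14 of the 27 pairs were on AZD8931 plate 1, 1 was on AZD8931 plate 2 and 0 were on AZD8931 plate 3, while each gefitinib plate held 2, and the DMSO plates held 1, 1 and 4. In UMSCC8 all 6 pairs were on DMSO plate 1. That DMSO plate also had 328 shRNAs at 0 counts, against 81 to 139 on the other plates of UMSCC8. TRCN0000021467 was the 1 shRNA past 40% in more than 1 line, on AZD8931 plate 3 in UMSCC25 and on DMSO plate 3 in UMSCC1 (45.4%).

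UMSCC1 spread its shRNAs less evenly than the other lines. The highest plate held 19.8% of the CPM sum of the median shRNA in UMSCC1, against 17.3% in UMSCC25 and 17.7% in UMSCC8. At the 99th percentile the share was 41.0% in UMSCC1, against 31.5% in UMSCC25 and 33.7% in UMSCC8. These are values of 1 set of 9 plates per line, without a test between lines.

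The largest absolute excess on a plate did not meet the 60% limit. TRCN0000000366, chosen after its values were seen, made up 14.0% of all counts on DMSO plate 2 of UMSCC1 (36220 of 258742), where it ranked first, against 1.45% to 3.07% on the other plates of the line. That plate held 46.0% of its CPM sum. No other pair past 40% made up more than 0.385% of a plate. Since CPM is a share of the plate, this shRNA lowers the CPM of all others on DMSO plate 2, among them TRCN0000039637, for which that plate was the next highest.

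For both members the next highest plate was a DMSO plate, and so not one of the same agent as the highest. Among all 2387 shRNAs with 200 counts in UMSCC1 the next highest plate had the same agent as the highest for 31.3%. For the 27 past 40%, which include the members, this was the case for 40.7% (11 shRNAs). The share with a DMSO plate as the next highest was not counted.

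The shRNAs with the pattern most like that of the members were found by Pearson's r of log2(CPM + 10) over the 9 plates of UMSCC1, given as a description over plates that share library totals. For TRCN0000003205 these were TRCN0000000991 (r = 0.93, and 0.95 over the other 8 plates), TRCN0000003195 (0.83 and 0.85) and TRCN0000037466 (0.81 and 0.17). On AZD8931 plate 2, TRCN0000000991 had 311 CPM (21.9% of its sum) and TRCN0000037466 had 1371 CPM (38.9%), in both cases their highest plate, with medians of 132 and 265 CPM on the other plates. TRCN0000003195 had 337 CPM there and its highest level on DMSO plate 1. For TRCN0000039637 they were TRCN0000037771 (r = 0.97, and 0.80 over the other 8 plates), TRCN0000037782 (0.94 and 0.80) and TRCN0000006198 (0.93 and 0.72). Each of the last 3 also had its highest level on AZD8931 plate 1, with 23.1% to 27.3% of its CPM sum there.

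Most neighbouring clone numbers did not have their highest level on the members' plates. The 8 shRNAs within 4 clone numbers of TRCN0000003205 had 4.59% to 16.9% of their CPM sums on AZD8931 plate 2. It was the highest plate for none of them, and for 10.6% of the 2387 shRNAs with 200 counts. Of the 4 shRNAs listed within 4 clone numbers of TRCN0000039637, TRCN0000039633 had its highest plate on AZD8931 plate 1 (994 CPM, 23.4% of its sum), TRCN0000039634 and TRCN0000039635 had their lowest level there (3.04% and 3.61%), and TRCN0000039636 had 0 counts in UMSCC1. AZD8931 plate 1 was the highest plate for 19.7% of the 2387 shRNAs, so these few neighbours do not tell a difference from the library. Whether neighbouring numbers target the same gene is not given in the files. The 6 identifiers that the study pairs with TGFBR1 or TGFBR2, the receptors of TGF-β, included none that met the rule, and the highest share among those with 200 counts in a line was 35.9%. With only 136 counts in UMSCC1, TRCN0000039774 of these 6 had 55.1% on DMSO plate 1.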

How the data were processed

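The values are raw counts of reads per shRNA, deposited by the authors as 1 table without any scaling. The submitters' processing notes name Bowtie 1.0.0, edgeR and hg19, and the role of each is not given in the sources used here. The table had 3177 shRNAs, of which 31 had 0 counts in every library, and all 27 columns were used. Samples were grouped by line, agent and plate number in their labels. CPM used library totals. A count of 3 was taken as the floor, which is 16.8 CPM in the shallowest and 5.36 CPM in the deepest library. Tests used the robust quasi-likelihood fit of edgeR 4.0.16 under R 4.3.3 (TMM, the 9 plates of a line in 1 fit, at least 10 counts over the plates fitted). Standard errors were derived from the quasi-likelihood F. Alternatives were RLE size factors, no filter beyond 1 count, DESeq2 1.42.0, a replicate block, other limits of the rule and leaving out each plate. No replicate pair was within sampling noise (reduced chi-square from 6.34 to 46.2). The highest values were those of AZD8931 plate 1 of UMSCC1, which held TRCN0000039637, with 46.2 against plate 3 and 44.5 against plate 2. AZD8931 plates 2 and 3 of that line gave 16.3, and the highest value of any other pair was 32.2, for DMSO plates 1 and 2 of UMSCC1. The fits and the rule were tested on simulated data. The counts for the rule had Poisson noise only, less than the spread between the replicates here. They thus do not show how often that spread alone meets the rule. The members and lists were chosen with earlier results of these data known. Identifiers named were the members, the 2 nearest to the limit on each side per line, the 3 most alike to each member, those within 4 clone numbers and the 6 for TGFBR1 and TGFBR2, with others said to be chosen after their values were seen.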

Additional observations from a re-analysis of the deposited data

Results flagged for a closer look

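In 10 sets of 9 plates looked at, 4 values stood apart, on 3 plates, by a gap to the nearest value larger than 0.493 of the range (Dixon's 95% critical value for 9 values). For independent, normally distributed values chance sets apart about 1 in 20 such sets, and each set mixes AZD8931, gefitinib and DMSO plates. TRCN0000039637 had 153.4 CPM on gefitinib plate 2 of UMSCC25, with the next plate at 88.8 CPM. DMSO plate 1 of UMSCC8 had 328 shRNAs at 0 counts, with the next plate at 139. The same plate had 6 shRNAs with at least 40% of their CPM sum on it, and the others of the line had 0. AZD8931 plate 1 of UMSCC1 had 14 such shRNAs, with the next plate at 4. The 14 include the member TRCN0000039637. The 40% limit was added after the values were seen, and the shares of an shRNA on the plates depend on each other. The flags of numbers past 40% are thus a description, to which the 1 in 20 does not apply. The CPM of the 2 members in UMSCC1 was not among the sets, since the rule chose them there.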

How the results depend on the processing

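Both members met the rule with TMM-scaled CPM (67.9% for TRCN0000003205 and 65.8% for TRCN0000039637), with RLE-scaled CPM (68.2% and 65.5%) and with a minimum of 400 counts. With a minimum of 100 counts there were 4 members, 2 of them on a DMSO plate of UMSCC8. The differences per plate were then 0 for AZD8931 (0.0156% of counts) and −0.22 for gefitinib (−0.00525% of counts). With a limit of 50% there were 7, of which 1 was in UMSCC25, 1 in UMSCC8 and 5 in UMSCC1. Of these shRNAs 4 lay on AZD8931 plates, 2 on gefitinib plates and 1 on a DMSO plate, and TRCN0000037811 and TRCN0000039637 shared AZD8931 plate 1 of UMSCC1. The difference from DMSO was then 0.333 per plate and 0.0463% of counts for AZD8931, and 0.111 and 0.00865% for gefitinib. With a limit of 70% there were 0, in UMSCC1, on AZD8931 plates and in both AZD8931 differences. With 40%, added after seeing the data, there were 35 shRNAs in 36 pairs of shRNA and line. Of the pairs, 3 were in UMSCC25, 6 in UMSCC8 and 27 in UMSCC1. By agent, 17 pairs lay on AZD8931 plates, 7 on gefitinib plates and 12 on DMSO plates, with several on some plates. The difference per plate was −0.56 for gefitinib and 0.56 for AZD8931, the latter with its sign kept. In percent of counts the differences were −1.57 for gefitinib and −1.35 for AZD8931, which reversed the AZD8931 difference. TRCN0000000366 on DMSO plate 2 of UMSCC1 enters at this limit.

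Leaving out each plate gave 1 to 4 members in all and in UMSCC1, 1 to 2 on AZD8931 plates, 0 to 1 on gefitinib plates and 0 to 1 on DMSO plates. It gave 0.111 to 0.333 for the AZD8931 difference per plate and 0.0155 to 0.0313 in percent of counts. It gave 0 to 0.111 for the gefitinib difference per plate and 0 to 0.00884 in percent of counts. Without gefitinib plate 2 of UMSCC1 there were 4 members, and without AZD8931 plate 2 there was 1. Without AZD8931 plate 1, TRCN0000001079 (62.3%, gefitinib plate 3) met the rule in place of TRCN0000039637.

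DESeq2 called 14 shRNAs for gefitinib and 8 for AZD8931 in UMSCC25, 76 for gefitinib in UMSCC8 and 24 for AZD8931 in UMSCC1, where edgeR called 0. The cause was not tested. With a plate left out, edgeR called 0 to 2 for AZD8931 in UMSCC25 (2 without gefitinib plate 3) and 0 to 1 for AZD8931 in UMSCC1 (1 without DMSO plate 2). RLE size factors, no filter beyond 1 count and the replicate block gave 0 calls in the 6 comparisons.

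Same-number plates had correlations of deviations from −0.142 to 0.279 in UMSCC1, −0.261 to 0.113 in UMSCC25 and −0.194 to 0.0174 in UMSCC8. For different numbers they ran from −0.426 to 0.303, −0.109 to 0.192 and −0.124 to 0.223. The medians for same and different numbers were 0.075 and 0.014 in UMSCC1, −0.033 and 0.014 in UMSCC25, and −0.041 and 0.031 in UMSCC8. The same-number median was thus higher in UMSCC1 only, and pairing of the plates was not tested. With the replicate block, the log2 fold change of TRCN0000039637 for gefitinib against DMSO in UMSCC8 was −0.069, against 0.00 without it. With the block, TRCN0000003205 for AZD8931 against DMSO in UMSCC25 was −1.62 (edgeR unadjusted p = 0.0292, adjusted p = 0.602). In that fit 251 of the 3090 shRNAs tested had an unadjusted edgeR p under 0.05 for AZD8931. Leaving out a plate moved TRCN0000039637 for gefitinib in UMSCC8 between −0.35 and 0.23. The same step moved TRCN0000003205 in UMSCC8 between −0.16 and 0.50 for gefitinib and between −0.16 and 0.41 for AZD8931, and in UMSCC1 for AZD8931 between −1.51 and 2.83. TRCN0000039637 for AZD8931 in UMSCC1 lay between −0.11 and 2.82. At these depths a count of 0 on a plate does not show that an shRNA was absent.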
